A study of Rattus norvegicus with 18 samples.

Results

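Complement and coagulation proteins were followed here as 37 genes of the liver's plasma protein output, 19 of complement and 18 of coagulation and fibrinolysis. The members were those of this list that the array's annotation named, each read through its brightest probe over the 18 arrays. A probe named 32 of the 37, 15 of complement and 17 of coagulation, out of 13337 genes named by a probe with 1 symbol, and each of the 32 had a single probe. C3, C5, C8b, Masp1 and F9 were not analysed here. The livers came from Wistar rat pups killed on postnatal day (PND) 27, whose dams had been injected intravenously in the tail with BDE-47, a tetrabrominated diphenyl ether used in flame retardants, every 5 days from gestational day 15 to PND 20, 6 injections in all. G1 dams received the vehicle alone (a mixture of ethanol, Cremophor EL and sterile water that all groups were given), G2 dams 0.002 mg/kg and G3 dams 0.2 mg/kg. The pups were therefore exposed through the dam, before birth and through milk, and were killed 7 days after her last injection. Each group had 6 pups, replicates 1 to 3 male and 4 to 6 female, from 3 dams. Which pups came from the same litter is not recorded in the labels, so every p-value treats the pups as independent and measures the spread between them.

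Complement is a cascade of plasma proteins that coats, flags and lyses microbes. It is started by C1 on antibody, by mannose-binding lectins on sugars, or by the alternative route of factor B, and it ends in a pore built from C5b to C9. Coagulation is a second protease cascade that ends in thrombin and fibrin, is checked by antithrombin, heparin cofactor II and the protein C system, and is undone by plasmin. Hepatocytes secrete most of the proteins of both cascades, and many of them change together in the acute phase response.

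Levels are the deposited normalized log2 intensities of an Illumina RatRef-12 array, on which the 22523 probes had a median of 7.84 and values between 7.61 and 15.73. A difference of 1 on this scale is a 2-fold change. Array medians lay between 7.84 and 7.85, and arrays correlated with each other at 0.974 to 0.995. Levels of different probes cannot be ranked against each other. Of the members, 31 had a mean over all pups above 9 and F7 was at 8.02, near the median probe. Of 18 hepatocyte markers listed for a check of the tissue, 16 had a probe, and their mean lay between 13.81 and 14.14 in every pup. Skeletal muscle transcripts stood out in 2 pups: the mean of 12 muscle markers was 10.43 in G3 replicate 2 and 8.08 in G3 replicate 4, against at most 7.90 in every G1 pup. The mean of 10 erythroid markers ran from 9.66 to 9.99 in G2 pups, against 9.88 to 10.31 in G1 pups, with 5 of the 10 lower at an unadjusted p below 0.05. Their part in the members' values was not tested. In whole liver, fewer cells of a type and less RNA per cell cannot be told apart.

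No member met the study's threshold of an adjusted p of at most 0.05 with a 2-fold difference in any comparison (limma, Benjamini-Hochberg adjustment over all probes). In limma that threshold was met by 0.00444% of probes in G3 against G1, by 0.00888% in G2 against G1 and by 0% in G3 against G2. These shares are 1 probe in G3 and 2 probes in G2 against G1. The paper used its own Bayesian test with the same cut-offs and reported far more genes at both doses. The near absence of calls here describes these limma fits. The study's own test was not run on these values, and the cause of the gap was not tested. No member passed an adjusted p of 0.05 without the fold limit either. At an unadjusted p below 0.05, used from here on only to describe, 10 of the 32 members (31.2%) differed in G3 against G1, 6 higher and 4 lower. Over all probes 8.59% were higher and 9.98% were lower, and among the 3177 named genes above level 9, which is where all members but F7 lie, 33.6% differed in either direction. The members' share was thus close to that of other genes of this brightness. In G2 against G1, 3 of 32 (9.38%) differed, 2 higher and 1 lower, beside 4.4% and 5.59% of all probes and 19% of the genes above level 9. In G3 against G2, 5 of 32 (15.6%) differed, 2 higher and 3 lower, beside 4.18% and 5.29% of all probes and 15.5% of the genes above level 9. Without G3 replicate 2 or G3 replicate 4, the pups with muscle transcripts, 8 members differed in G3 against G1 in place of 10. Over all probes 17.8% and 16.2% then differed, and over the genes above level 9, 31.5% and 29.4%. Leaving out any other G3 pup gave 6 or 7 members. No member had groups that did not overlap, in G3 against G1 or in G2 against G1, where 1.95% and 0.448% of all probes did. After adjustment the F-test over the 3 groups passed 0.186% of probes and no member, with a smallest adjusted p of 0.135 for C6. Before adjustment 8 members had an F-test p below 0.05. The share of other genes at that unadjusted level is not given here, and the 0.186% is no measure for these 8.

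**Figure D1:**
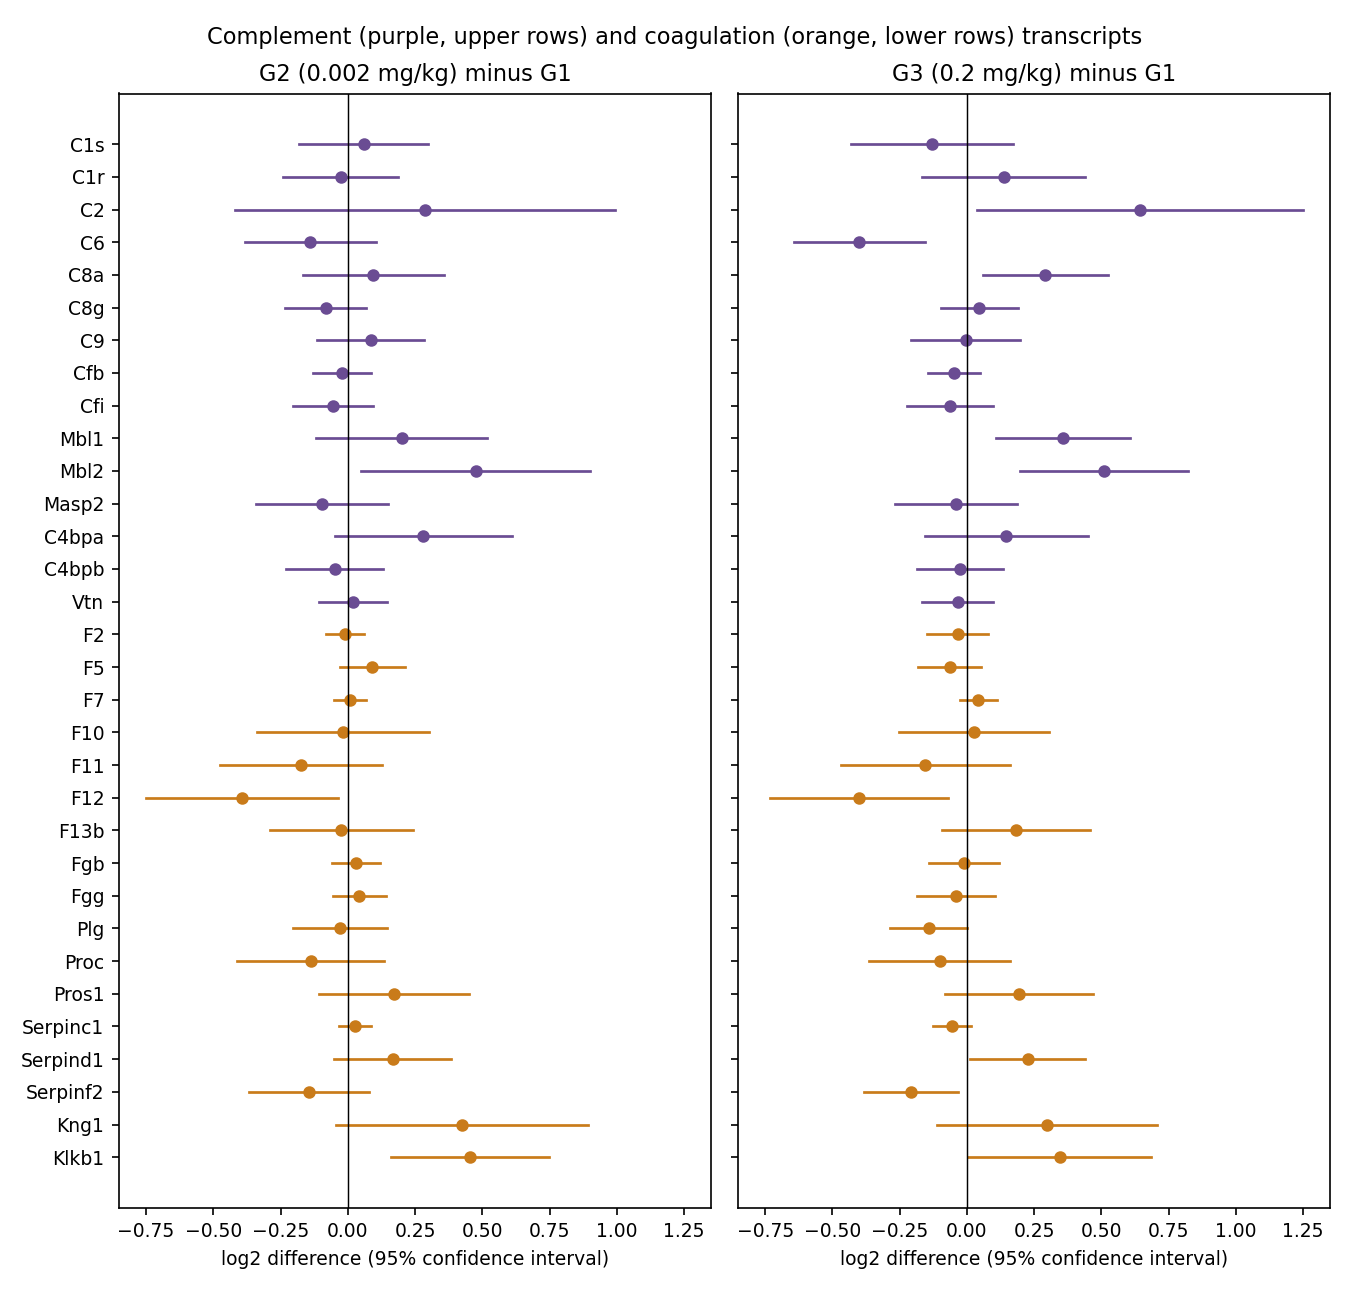
Log2 difference of each of the 32 members with its 95% confidence interval, G2 minus G1 at left and G3 minus G1 at right, complement in purple and coagulation in orange. C2, Mbl2 and Mbl1 lie farthest to the right among complement genes in G3, C6 and F12 lie farthest to the left at -0.40 each, and the intervals of the fibrinogen, prothrombin and antithrombin transcripts are short and include 0.

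The lectins were among the members whose G3 pups all lay above the G1 median. Mbl1 and Mbl2 encode the mannose-binding lectins A and C, which bind microbial sugars and start complement through the MASP proteases. Mbl2 ran from 9.84 to 10.69 with a median of 10.23 in G1 pups, from 10.19 to 11.16 with a median of 10.73 in G2 pups, and from 10.37 to 11.003 with a median of 10.74 in G3 pups. All 6 G3 pups and 5 of 6 G2 pups were above the G1 median, and 3 pups of each exposed group were above every G1 pup. The difference was 0.51 (SE 0.14, limma adjusted p = 0.103) in G3 against G1, and 0.48 (SE 0.19, limma adjusted p = 0.486) in G2 against G1. Mbl1 ran from 9.36 to 10.10 with a median of 9.55 in G1 pups, from 9.45 to 10.07 with a median of 9.87 in G2 pups, and from 9.78 to 10.13 with a median of 9.97 in G3 pups. All 6 G3 pups were above the G1 median but only 1 was above every G1 pup, because G1 replicate 6 had the 10.10. The Mbl1 difference was 0.36 (SE 0.11, limma adjusted p = 0.127) in G3 against G1 and 0.20 (SE 0.14, limma adjusted p = 0.648) in G2 against G1. Without G1 replicate 6, in which Mbl1 and Mbl2 were the highest of their group, the G3 differences of Mbl1 and Mbl2 were 0.46 and 0.60 with limma adjusted p = 0.00972 and 0.0227. Leaving that pup out raised the number of probes past an adjusted p of 0.05 to 1434, against 18 with all 12 pups. Masp2, the protease that the lectins activate, was at 9.04 to 9.25 in G3 pups, against 8.91 to 9.50 in G1 pups, and the difference of -0.04 had a 95% interval from -0.27 to 0.19.

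**Figure D2:**
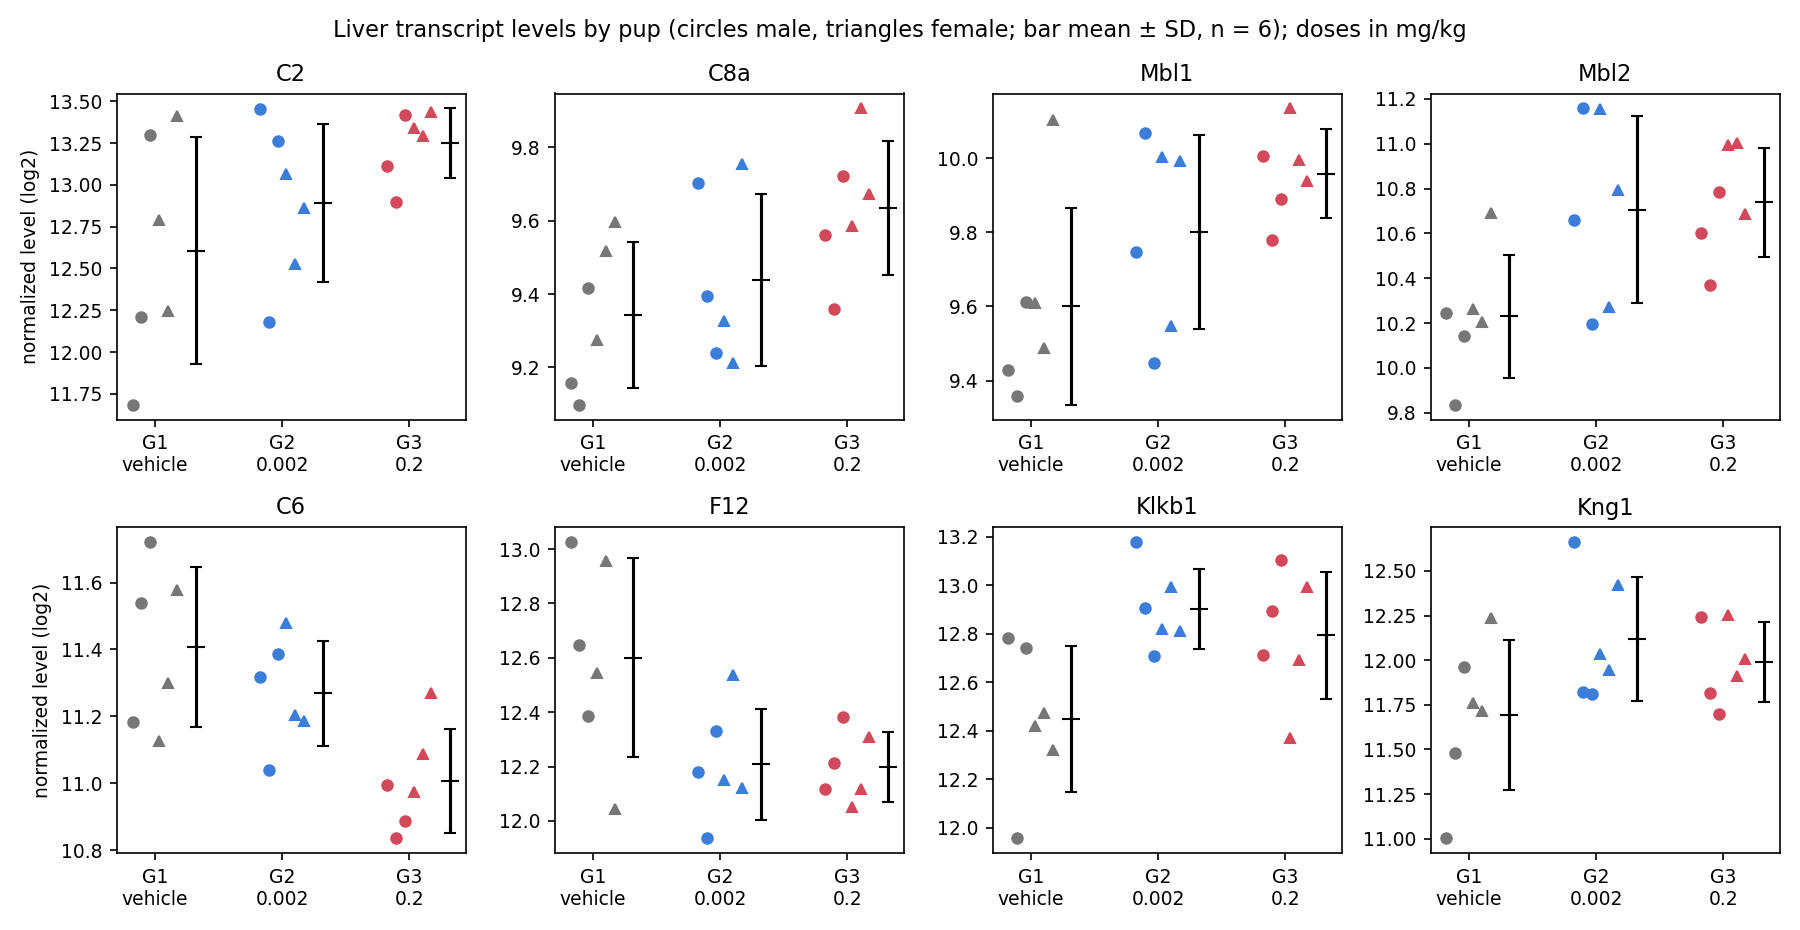
Normalized log2 level of 8 members in each of 18 pups, by dose group in dose order, with the group mean and SD. In C6 the 6 G3 pups lie at 10.84 to 11.27 and 5 of them are below every G1 pup, in Mbl1 1 G1 female lies at 10.10 within the G3 range, and in C2 the G1 pups spread from 11.68 to 13.41.

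Among the listed members of the classical and alternative routes, C2 had the widest difference, and C1r, C1s and Cfb had differences within 0.14. C2, the protease that forms the classical and lectin C3 convertase with C4, ran from 11.68 to 13.41 with a median of 12.52 in G1 pups, from 12.18 to 13.46 with a median of 12.96 in G2 pups, and from 12.90 to 13.44 with a median of 13.32 in G3 pups. All 6 G3 pups were above the G1 median, while the G1 pups covered nearly the whole range of the other groups. The difference was 0.64 (SE 0.27, 95% interval 0.04 to 1.25, limma adjusted p = 0.232) in G3 against G1, a 1.56-fold higher mean, and it stayed below an unadjusted p of 0.05 in 5 of the 12 fits that left out 1 pup. C1r and C1s, the proteases of the C1 complex, differed by 0.14 (SE 0.14) and -0.13 (SE 0.13) in G3 against G1. Cfb, the alternative-route protease, differed by -0.05 (SE 0.043) at 15.01 to 15.19 in G3 pups, against 15.00 to 15.24 in G1 pups.

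The terminal pathway held differences in both directions. C6, which joins C5b at the start of the membrane attack complex, ran from 11.13 to 11.72 with a median of 11.42 in G1 pups, from 11.04 to 11.48 with a median of 11.26 in G2 pups, and from 10.84 to 11.27 with a median of 10.98 in G3 pups. All 6 G3 pups were below the G1 median and 5 of them were below every G1 pup. The difference was -0.40 (SE 0.11, limma adjusted p = 0.101) in G3 against G1, -0.14 (SE 0.11, limma adjusted p = 0.686) in G2 against G1 and -0.26 (SE 0.084, limma adjusted p = 0.392) in G3 against G2. C8a, the pore subunit that inserts into the membrane, was at 9.36 to 9.91 with a median of 9.63 in G3 pups, against 9.10 to 9.60 with a median of 9.35 in G1 pups, and 3 G3 pups were above every G1 pup. Its difference was 0.29 (SE 0.10, limma adjusted p = 0.168) in G3 against G1 and 0.10 (SE 0.12) in G2 against G1. C8g, the lipocalin-like subunit of C8, differed by 0.05 (SE 0.064) and C9, the subunit that polymerises into the ring, by 0.00 (95% interval -0.21 to 0.20) in G3 against G1.

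Of the regulators of complement none passed an unadjusted p of 0.05 at either dose. C4bpa, the alpha chain of the C4b-binding protein, was at 13.61 to 14.08 with a median of 13.82 in G2 pups, against 12.99 to 13.89 with a median of 13.59 in G1 pups, all 6 G2 pups being above the G1 median. The difference was 0.28 (SE 0.15, limma adjusted p = 0.536) in G2 against G1 and 0.15 (SE 0.14) in G3 against G1. C4bpb, its beta chain, Cfi, which cleaves C3b and C4b, and Vtn, which blocks the terminal complex, had G3 differences of -0.03, -0.06 and -0.04 with intervals inside 0.5 log2 units.

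Among the coagulation genes the contact system had the members with the largest differences, in opposite directions. F12, the protease that starts contact activation, ran from 12.04 to 13.03 with a median of 12.60 in G1 pups, from 11.94 to 12.54 with a median of 12.16 in G2 pups, and from 12.05 to 12.38 with a median of 12.16 in G3 pups. All 12 exposed pups were below the G1 median, and G1 replicate 6, at 12.04, lay below every G3 pup. The difference was -0.40 (SE 0.15, limma adjusted p = 0.181) in G3 against G1 and -0.39 (SE 0.16, limma adjusted p = 0.486) in G2 against G1. Without G1 replicate 6 the G3 difference of F12 was -0.51, with limma adjusted p = 0.0306. Klkb1, the plasma prekallikrein that factor XII activates, ran from 11.96 to 12.78 with a median of 12.45 in G1 pups, from 12.71 to 13.18 with a median of 12.86 in G2 pups, and from 12.37 to 13.10 with a median of 12.80 in G3 pups. In G2, 5 of 6 pups were above every G1 pup, and in G3, 3 of 6. The difference was 0.45 (SE 0.13, limma adjusted p = 0.444) in G2 against G1 and 0.35 (SE 0.15, limma adjusted p = 0.255) in G3 against G1. Kng1, a kininogen that carries prekallikrein and is the source of bradykinin, was at 11.70 to 12.26 in G3 pups, against 11.002 to 12.23 in G1 pups, and all 6 G2 pups, at 11.81 to 12.66, were above the G1 median of 11.74. Its differences of 0.30 (SE 0.18) in G3 and 0.42 (SE 0.21) in G2 against G1 had intervals that included 0. Rats carry a close kininogen copy, Kng2, whose probe differed by -0.11 in G3 against G1 (limma adjusted p = 0.139), and cross-hybridisation between the copies was not tested. F11, which factor XIIa activates, differed by -0.16 (SE 0.14) in G3 and -0.17 (SE 0.14) in G2 against G1.

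None of the transcripts of the vitamin K-dependent proteins, the cofactors and fibrinogen passed an unadjusted p of 0.05 against G1 at either dose. The prothrombin transcript F2, the fibrinogen chains Fgb and Fgg, and Serpinc1, which encodes antithrombin, had G3 differences of -0.03, -0.01, -0.04 and -0.06, and G2 differences of -0.01, 0.03, 0.04 and 0.03, each with an interval inside 0.5 log2 units. These 4 belong to 7 members above level 15, with Cfb, Vtn and Plg, for which the G1 standard deviation had a median of 0.084 and no G3 difference exceeded 0.141 in size. Among the 63 probes of the array above that level 7.94% had an unadjusted p below 0.05 in G3 against G1. The upper end of the scale was 15.73, and a compression of differences there was not tested. F10, F7 and Proc, which encode factors X and VII and the anticoagulant protein C, had G3 differences of 0.03, 0.04 and -0.10, and F7 was at 7.99 to 8.16 in G3 pups, against 7.93 to 8.06 in G1 pups. For Proc, all 6 G3 pups and all 6 G2 pups were below the G1 median, and the G2 difference was -0.14 (SE 0.12). F5, the cofactor of factor Xa, was at 12.31 to 12.57 in G3 pups, against 12.51 to 12.71 in G2 pups, a difference of -0.16 (SE 0.052, limma adjusted p = 0.406), and in G2 all 6 pups were above the G1 median. F13b, the carrier subunit of the fibrin-crosslinking factor XIII, differed by 0.18 (SE 0.12) in G3 against G1 and by 0.21 (SE 0.090, limma adjusted p = 0.505) in G3 against G2. Pros1, the cofactor of activated protein C, differed by 0.19 (SE 0.12) in G3 and 0.17 (SE 0.13) in G2 against G1. In each exposed group 5 of 6 pups were above its G1 median.

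The inhibitors and the fibrinolytic genes differed in both directions. Serpind1, which encodes heparin cofactor II, was at 14.38 to 14.58 with a median of 14.51 in G3 pups, against 13.92 to 14.55 with a median of 14.26 in G1 pups, and all 12 exposed pups were above the G1 median. The difference was 0.23 (SE 0.096, limma adjusted p = 0.237) in G3 and 0.17 (SE 0.097, limma adjusted p = 0.573) in G2 against G1. Serpinf2, the alpha-2-antiplasmin that blocks plasmin, was at 13.74 to 14.16 with a median of 13.95 in G3 pups, against 13.94 to 14.28 with a median of 14.20 in G1 pups. All 6 G3 pups were below the G1 median, and the difference was -0.21 (SE 0.079, limma adjusted p = 0.19). Plg, the plasminogen transcript, was at 14.97 to 15.32 in G3 pups, against 15.09 to 15.36 in G1 pups, a difference of -0.14 (SE 0.064, limma adjusted p = 0.268). C6, C8a, Mbl1, Mbl2, F12 and Serpinf2 kept an unadjusted p below 0.05 in all 12 fits that left out 1 pup of G3 or G1, and in G2 against G1 Klkb1 did so. In each of the G3 fits, 27.4% to 40.9% of the named genes above level 9 passed this level. The share of those genes that passed in every fit is not given here. In G3 against G1, with the replicate number as a block, F12 and Serpinf2 did not pass. Of the genes named for G3, Serpinf2 alone did not pass in males only, and Mbl2 alone passed in females only. In G2 against G1, Klkb1 passed with the block and in females only, but not in males only.

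Set side by side, the complement arm and the coagulation arm differed little between groups. The mean of the 15 complement levels was 12.59 ± 0.094 in G1, 12.66 ± 0.094 in G2 and 12.68 ± 0.087 in G3 pups (SD, n = 6 each). The mean of the 17 coagulation levels was 12.80 ± 0.076 in G1, 12.82 ± 0.057 in G2 and 12.80 ± 0.024 in G3 pups. Complement minus coagulation ran from -0.37 to -0.07 in G1, from -0.32 to -0.08 in G2 and from -0.26 to -0.04 in G3 pups, so that the groups overlapped. The median difference over the complement members was 0.00 in G3 and 0.02 in G2 against G1, and over the coagulation members -0.03 and 0.01, beside 0.00 in both comparisons over all probes. The mean difference over the complement members in G3 was 0.09, with C2, Mbl2, Mbl1 and C8a as the 4 highest. Of the 32 members 7 had group means that were ordered upward with dose, 7 downward and 18 in neither order. Both exposed groups were set against the same G1 pups.

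**Figure D3:**
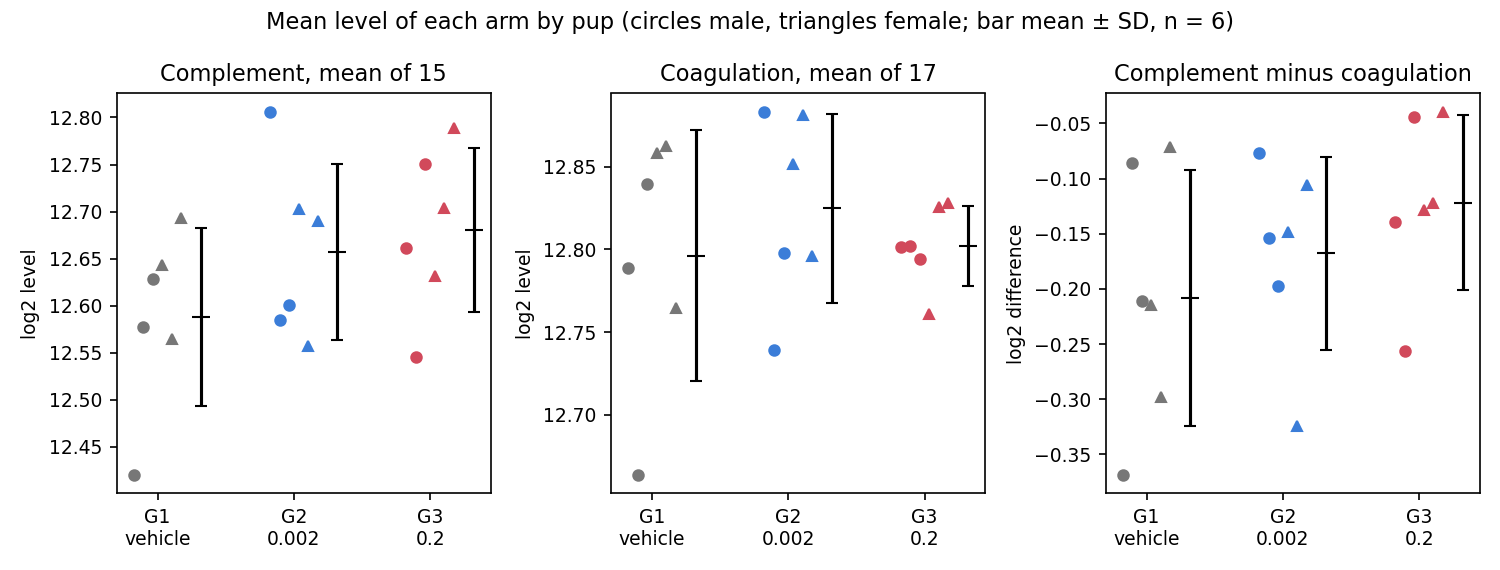
Mean log2 level of the 15 complement members, of the 17 coagulation members and the difference between them, for each pup in dose order with group mean and SD. Group ranges overlap in all panels, and the coagulation means of the G3 pups span only 12.76 to 12.83.

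No member passed the test of a sex by exposure interaction, which had a smallest adjusted p of 1 and 0 members at an unadjusted p below 0.05 (limma). Between females and males of all groups 1 member, F2, had an unadjusted p below 0.05, with a smallest adjusted p of 0.899.

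Beyond the group means, some pairs of members varied together from pup to pup, while most did not. Deviations of the 18 pups from their group means were correlated for all 496 pairs, and the pairs named here are the strongest of them, given as a description. Of the 496, 14 (2.82%) had r above 0.7 and 3 (0.605%) had r below -0.7, beside 1.43% and 1.19% of all pairs of genes above level 9. The median r was 0.11 for pairs within complement, -0.02 within coagulation and 0.00 between the arms, beside 0.00 for all genes above level 9. Pups share a litter with another pup of their group, and all values of a pup share an array. Mbl1 and Mbl2, on different chromosomes, had Pearson's r = 0.885 and Spearman's rho = 0.829, and r was 0.768 in G3, 0.960 in G2 and 0.894 in G1 pups. C4bpa and Kng1 had r = 0.870 and rho = 0.853, with 0.649 in G3, 0.909 in G2 and 0.920 in G1 pups. F13b and Pros1 had r = 0.864 and rho = 0.885. Without the 2 pups farthest from the median of the first gene, r was 0.854, 0.822 and 0.893 for these 3 pairs. Mbl1 against F12 was the most negative of all pairs, with r = -0.796 and rho = -0.841, and Mbl2 against F12 had r = -0.551. F12 had r = 0.743 with Proc, 0.749 with F11 and -0.740 with Serpind1. Without the 2 pups farthest on F12, its r was 0.673 with Proc and -0.470 with Serpind1. Without the 2 pups farthest on F11, r for F11 and F12 was 0.598. Without the 2 pups farthest on Mbl1, r for Mbl1 and F12 was -0.725. The F12 and Serpind1 relation thus rested in part on the 2 pups farthest on F12.

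**Figure D4:**
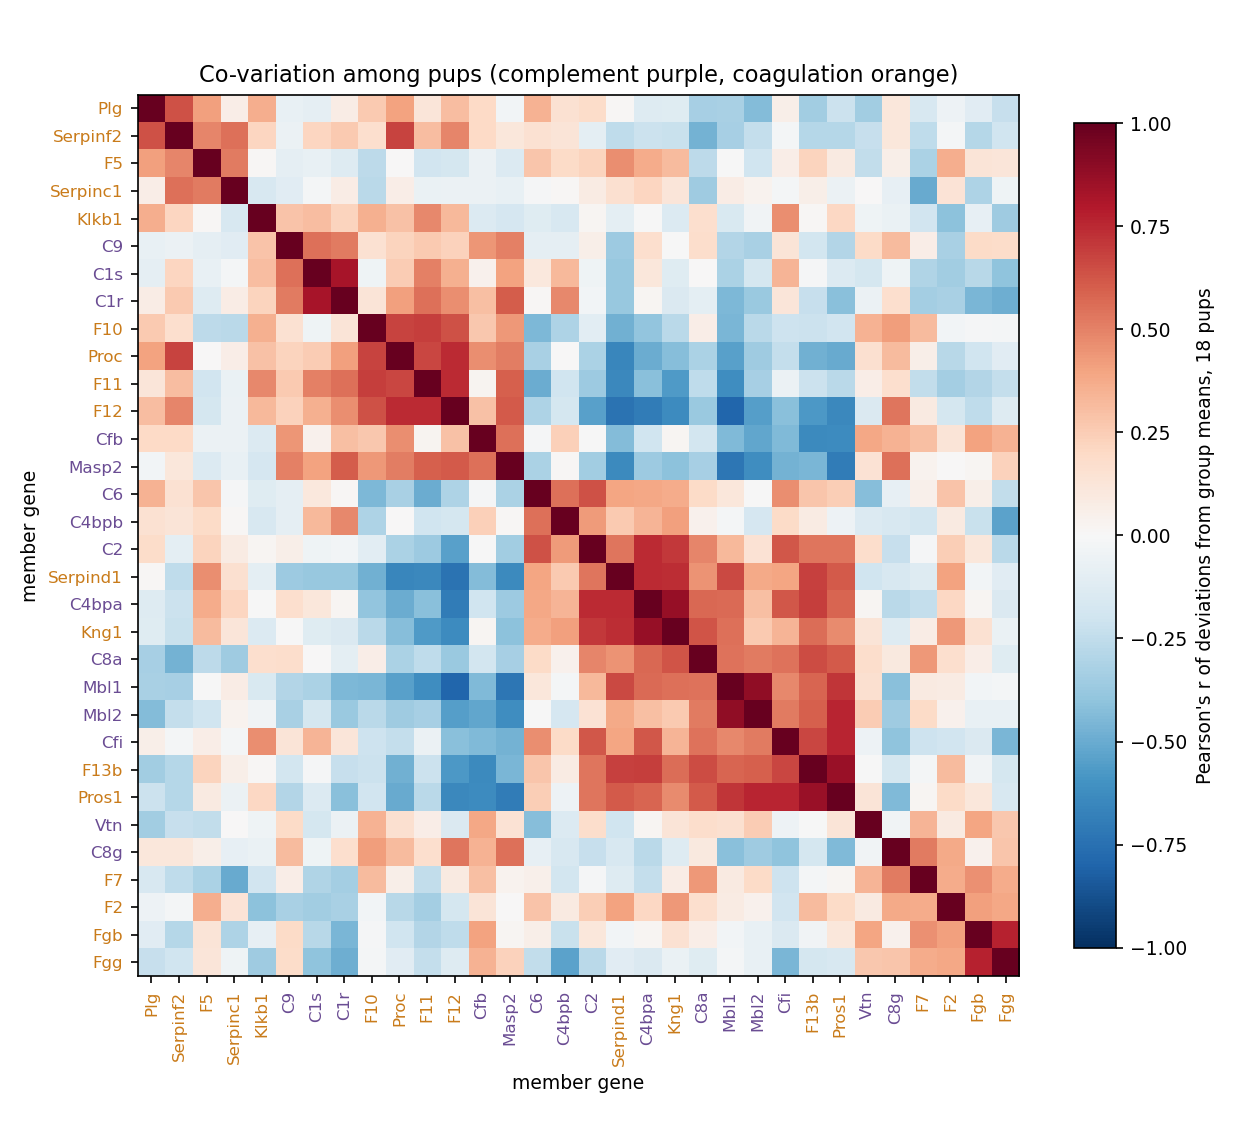
Pearson's r between the deviations of each pair of the 32 members from their group means over 18 pups, ordered by average linkage, with complement names in purple and coagulation names in orange. A block that holds Mbl1, Mbl2, Pros1, F13b, C4bpa and Kng1 is red within itself and blue against a block that holds F10, F11, F12, Proc and Masp2, and both blocks hold members of both arms.

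**Figure D5:**
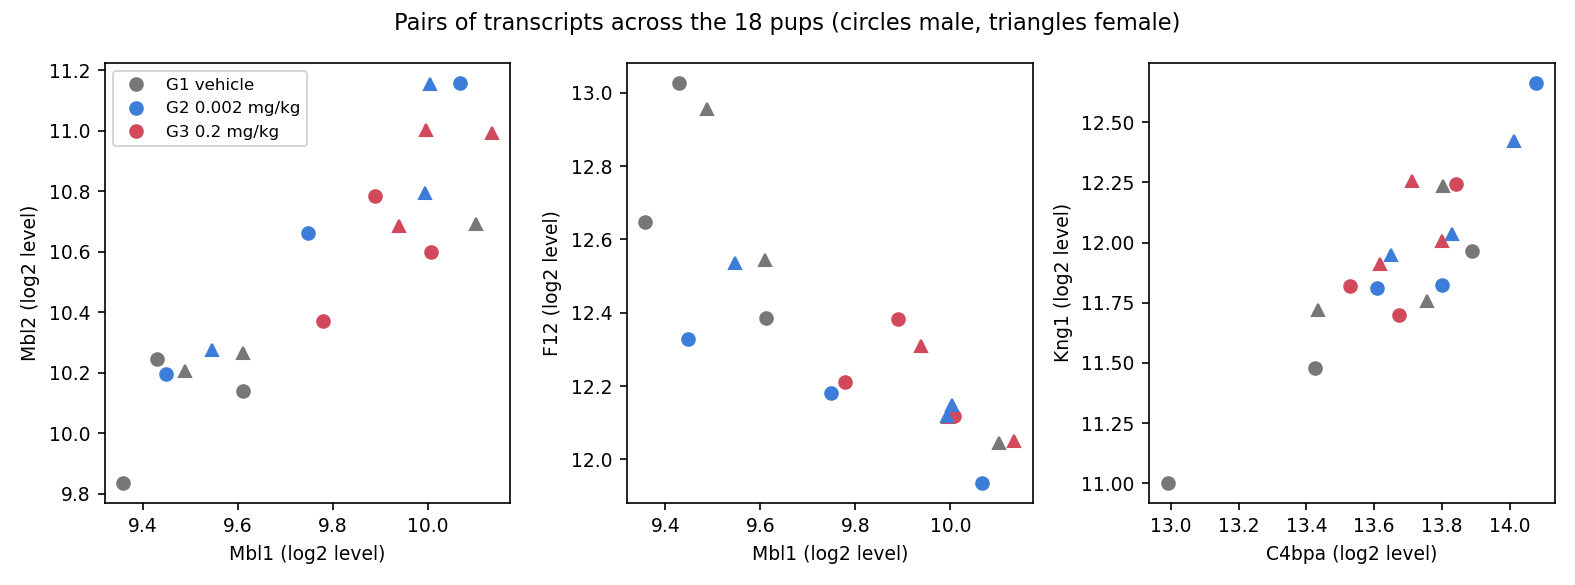
Log2 levels of Mbl1 with Mbl2, of Mbl1 with F12 and of C4bpa with Kng1 in each of the 18 pups. The points of each dose group run upward in the outer panels (r = 0.885 and 0.870) and downward in the middle panel (r = -0.796).

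Members that lie next to each other in the genome were not alike in this respect. C1r and C1s, neighbours with no protein-coding gene between them, had r = 0.827, and Fgb and Fgg, with 1 gene between them, r = 0.766. F11 and Klkb1 had r = 0.481, C4bpa and C4bpb r = 0.338, F7 and F10 r = 0.313, and the neighbours C2 and Cfb r = -0.003. Within G2 the Fgb and Fgg pair had an r of only 0.121.

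Promoters of 25 of the 32 members were matched by symbol in a RefSeq table of build GRCr8, each covering 250 bases before to 50 bases after the gene's start. Letters used by liver factors were searched on both strands. The HNF1 letters GTTAAT or ATTAAC was in 8 of the 25 members (32%) and in 7.45% of the 33469 promoters of the table, and the C/EBP letters TTNNGCAA or TTGCNNAA were in 8 of 25 (32%) and 10.6%. The STAT3 letters TTCNNNGAA were in 5 of 25 (20%) and 8.87%, the TATA letters TATAAA or TTTATA in 2 of 25 (8%) and 14.2%, and the HNF4 letters CAAAGTCCA or TGGACTTTG in 0 of 25 and 0.391%. The HNF1 letters were in 3 of 9 complement and 5 of 16 coagulation promoters, and the C/EBP letters in 4 of 9 and 4 of 16. Shown next are the promoters of the 3 pairs of highest r and of F12, of the most negative pair, with HNF1 and C/EBP letters in capitals, which do not overlap in any of them.
Mbl1 (GRCr8 chr16:17062982-17063281, + strand): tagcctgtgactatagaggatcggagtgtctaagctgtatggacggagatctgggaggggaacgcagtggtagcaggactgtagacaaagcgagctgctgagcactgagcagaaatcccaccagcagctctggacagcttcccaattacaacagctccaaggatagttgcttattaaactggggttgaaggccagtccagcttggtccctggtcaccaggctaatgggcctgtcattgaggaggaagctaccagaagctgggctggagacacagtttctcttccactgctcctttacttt
Mbl2 (GRCr8 chr1:237430793-237431092, + strand): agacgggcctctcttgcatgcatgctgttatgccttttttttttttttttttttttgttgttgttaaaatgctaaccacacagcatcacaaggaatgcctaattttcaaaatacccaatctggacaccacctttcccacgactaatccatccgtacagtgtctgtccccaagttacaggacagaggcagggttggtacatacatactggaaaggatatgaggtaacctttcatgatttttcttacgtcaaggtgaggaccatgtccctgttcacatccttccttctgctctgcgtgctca
F12 (GRCr8 chr17:9212569-9212868, + strand): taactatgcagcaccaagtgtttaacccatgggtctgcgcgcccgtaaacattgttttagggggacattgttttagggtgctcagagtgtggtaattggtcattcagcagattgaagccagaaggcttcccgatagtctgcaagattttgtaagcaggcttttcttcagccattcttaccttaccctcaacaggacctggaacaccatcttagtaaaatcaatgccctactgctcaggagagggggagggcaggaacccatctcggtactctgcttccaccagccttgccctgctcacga
C4bpa (GRCr8 chr13:44663422-44663721, - strand): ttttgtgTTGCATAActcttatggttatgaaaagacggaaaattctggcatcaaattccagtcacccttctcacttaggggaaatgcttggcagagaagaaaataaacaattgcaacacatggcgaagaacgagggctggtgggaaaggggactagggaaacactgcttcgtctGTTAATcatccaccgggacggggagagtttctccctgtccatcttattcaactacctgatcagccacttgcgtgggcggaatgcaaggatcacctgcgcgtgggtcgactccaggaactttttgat
Kng1 (GRCr8 chr11:91340099-91340398, - strand): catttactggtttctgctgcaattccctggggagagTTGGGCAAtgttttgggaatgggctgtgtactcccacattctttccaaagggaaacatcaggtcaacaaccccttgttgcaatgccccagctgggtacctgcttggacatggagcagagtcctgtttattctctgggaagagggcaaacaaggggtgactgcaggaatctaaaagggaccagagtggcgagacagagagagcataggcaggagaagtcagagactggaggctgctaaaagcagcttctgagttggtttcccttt
F13b (GRCr8 chr13:53681389-53681688, + strand): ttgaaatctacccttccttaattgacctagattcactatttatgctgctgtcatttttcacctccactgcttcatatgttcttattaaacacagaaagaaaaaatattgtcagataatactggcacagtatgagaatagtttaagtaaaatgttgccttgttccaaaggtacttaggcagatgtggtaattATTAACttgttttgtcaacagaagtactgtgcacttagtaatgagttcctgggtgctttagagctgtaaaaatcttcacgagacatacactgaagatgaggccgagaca
Pros1 (GRCr8 chr11:13677049-13677348, + strand): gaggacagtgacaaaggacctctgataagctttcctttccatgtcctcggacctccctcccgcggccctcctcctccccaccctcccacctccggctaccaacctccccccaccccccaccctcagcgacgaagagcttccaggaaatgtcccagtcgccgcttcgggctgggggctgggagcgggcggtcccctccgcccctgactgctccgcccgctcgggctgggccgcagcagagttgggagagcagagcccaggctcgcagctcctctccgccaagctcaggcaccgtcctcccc
Mbl1, Mbl2, F12 and Pros1 held neither set of letters in this window, C4bpa held 1 of each, Kng1 held the C/EBP letters alone and F13b the HNF1 letters alone. The members were chosen as liver-secreted proteins, and a match is a description of the letters only.

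The other genes of both cascades came from lists fixed with the members. Against G1 they passed the same level at shares no higher than those over all probes. Of 24 measured of 36 other complement genes, 1 was higher and 2 were lower at an unadjusted p below 0.05 in G3 against G1 (12.5%), and 0 and 2 in G2 against G1 (8.33%). Over all probes 18.6% and 9.98% differed, and over the genes above level 9, 33.6% and 19%. Some listed genes, such as Cd55 and Cr2, lay near the median probe. C4b, a copy of the C4 that C2 joins in the convertase, was at 13.27 to 14.01 with a median of 13.53 in G3 pups, against 13.86 to 14.25 with a median of 14.12 in G1 pups, a difference of -0.49 (limma adjusted p = 0.096). Cross-hybridisation with its near-identical copy C4a was not tested. Vsig4, a complement receptor of Kupffer cells, differed by 0.69 (limma adjusted p = 0.138), and Cfp, the properdin that stabilises the alternative convertase, by -0.41 (limma adjusted p = 0.226) in G3 against G1. Fcna, a ficolin of the lectin route, differed by -0.30 in G2 against G1 (limma adjusted p = 0.471). Of the 8 Kupffer cell and macrophage markers with a probe, Vsig4 was the 1 with an unadjusted p below 0.05, and the mean of the 8 was at 9.81 to 10.70 in G3 pups, against 9.94 to 10.42 in G1 pups. The part of these cells in the Vsig4 value was not tested.

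Of 27 measured of 36 other coagulation genes, 2 were higher and 3 lower in G3 against G1 (18.5%), and 0 and 2 in G2 against G1 (7.41%). Over all probes 18.6% and 9.98% differed. In G3 against G2, 4 of the 27 were higher and 0 lower (14.8%), beside 9.47% of all probes and 15.5% of the genes above level 9. Serpina10, the protein Z-dependent inhibitor of factor Xa, was at 12.63 to 12.90 with a median of 12.80 in G3 pups, against 12.91 to 13.12 with a median of 13.01 in G1 pups, so that the groups did not overlap. Its difference was -0.23 (limma adjusted p = 0.0651) in G3 and -0.28 (limma adjusted p = 0.435) in G2 against G1. F2r, the thrombin receptor, was at 8.85 to 8.96 in G3 pups, against 8.89 to 9.48 in G1 pups, a difference of -0.29 (limma adjusted p = 0.0915). Procr, the endothelial protein C receptor, differed by -0.18 in G2 against G1 (limma adjusted p = 0.419). Of 7 measured genes of vitamin K carboxylation, 1 (14.3%) was lower in G3: Vkorc1l1, a vitamin K epoxide reductase, with a difference of -0.32 (limma adjusted p = 0.0956).

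Regulators of liver secretory genes and acute phase genes differed in both directions at this unadjusted level, as other genes did. Of 15 measured hepatocyte transcription factors 3 were higher and 2 lower in G3 against G1 (33.3%), of 16 genes of interleukin 6 and 1 signalling 3 and 3 (37.5%), and of 16 acute phase genes outside the members 2 and 2 (25%), beside 20.9% of all named genes and 33.6% of those above level 9. The median gene of the first 2 lists was at 8.72 and 7.83, and 15.2% of probes below level 9 differed. Foxa3, a forkhead factor of hepatocytes, differed by 0.55 (limma adjusted p = 0.12) and Hnf4a by 0.17 (limma adjusted p = 0.189) in G3. Dbp, a clock-controlled factor near the median probe, differed by -0.10 (limma adjusted p = 0.0991) in G3. Foxa2, named after its values were seen as the lowest of the list, differed by -0.58 (limma adjusted p = 0.244) in G3. Nr5a2 differed by 0.30 in G2 against G1 (limma adjusted p = 0.45). In G3 against G1 the kinases Jak2 and Jak1 differed by 0.16 and 0.69 (limma adjusted p = 0.0826 and 0.164). Osmr, the oncostatin M receptor, also near the median probe, differed by 0.05 (limma adjusted p = 0.182). Tnfrsf1a, a tumour necrosis factor receptor, differed by -0.19 (limma adjusted p = 0.122), and Il6r, the interleukin 6 receptor, named after its values were seen as the lowest of the list, by -0.32 (limma adjusted p = 0.195). Crp, a pentraxin that binds C1q, was at 12.39 to 13.40 with a median of 12.91 in G3 pups, against 10.62 to 13.17 with a median of 11.75 in G1 pups, a difference of 1.04 (limma adjusted p = 0.184). Saa4 differed by -0.32 (limma adjusted p = 0.132) and Apcs by 0.14 (limma adjusted p = 0.261) in G3 against G1.

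The precision of 6 pups a group bounded what these arrays could show. The 95% intervals used limma's SE with the residual degrees of freedom alone, so they are slightly wider than the limma p-values imply. For Plg the G3 minus G1 interval, -0.28 to 0.002, included 0 although limma gave an unadjusted p of 0.0496. The 95% interval of the G3 minus G1 difference lay inside 1 log2 unit for 31 of the 32 members, C2 being the exception, and inside 0.5 log2 units for 24. For G2 minus G1 it lay inside 1 log2 unit for all 32 members and inside 0.5 for 25.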

How the data were processed

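Liver RNA of 18 pups was hybridised to Illumina RatRef-12 arrays. The authors deposited log2 intensities that they had preprocessed and normalized with lumi, as the submitters' processing notes and the study's methods name it, whose version is not given in the sources used here. These values were used as deposited, and the study's Bayesian t-test was replaced by moderated tests in limma 3.58.1 (R 4.3.3) on the 12 pups of each comparison, with Benjamini-Hochberg adjustment over 22523 probes. Calls required 2-fold differences with adjusted p-values of 0.05 or less. Of the probes, 13793 had 1 gene symbol and 13752 matched a RefSeq gene ID. The members and lists were chosen with earlier results of these data known. Every member was named, with at most 4 genes of smallest unadjusted p from each other list, besides Foxa2 and Il6r. Each gene was read by its brightest probe. Alternatives changed the fit, the prior variance, the low-level filter, the normalization, sex, array weights, the replicate block and single pups. The fitting steps were tested on simulated data. The number of pups limits the precision.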

Additional observations from a re-analysis of the deposited data

Results flagged for a closer look

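In 6 of the 96 groups of 6 pups tested, 1 pup stood far from the other 5, where chance alone marks about 1 in 20 groups. Mbl1 was at 10.10 in G1 replicate 6, beside a median of 9.49 in the other G1 pups. F2 was at 15.20 in G1 replicate 1, beside 15.34, and Fgb was at 15.23 in G1 replicate 5, beside 15.43. In G2, Vtn was at 15.55 in replicate 1, beside 15.39, and Serpinc1 was at 15.19 in replicate 4, beside 15.06. F7 was at 8.16 in G3 replicate 5, beside 8.03.

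For 2 members the exposed pups of one sex all moved opposite to those of the other, relative to the G1 pups of their sex. The effect in females minus that in males was -0.20 for Vtn in G2 and -0.29 for Proc in G3. The interaction test by limma gave unadjusted p = 0.0698 for Vtn and 0.226 for Proc, and neither passed after adjustment.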

How the results depend on the processing

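No member was called in any alternative. At an unadjusted p below 0.05, 10 members differed in G3 against G1, 5 in males only, 2 in females only and 6 to 11 with 1 pup left out. Among all named genes above level 9, 33.6% differed, with 26.7% in males only and 14.5% in females only. With 1 pup left out, 27.4% to 40.9% of those genes did, so the counts shifted for other genes too. In G2 against G1 3 members did, with 5 when all 3 groups were fitted together, 1 in females only and 1 to 7 with 1 pup left out. The share of genes above level 9 was 19% in the main fit, 24.3% with all groups and 7.55% in females only. With 1 pup left out it was 12.6% to 30.2%. In G3 against G2 5 members did, with 3 when all groups were fitted together, 2 with a variance prior following mean expression, 3 with quantile normalization, 2 in males only, 2 in females only and 3 to 6 with 1 pup left out. The shares of genes above level 9 were 15.5% in the main fit and, in this order, 10.8%, 11.4%, 14.9%, 11%, 10% and 12.4% to 17.7%. With the replicate number as a block, 6 members differed in G3 against G1, 3 in G2 against G1 and 6 in G3 against G2, beside 32%, 21.4% and 15.7% of those genes. Deviations of same-numbered pups correlated at -0.105 to 0.0777, -0.156 to 0.223 and -0.331 to 0.166 in these comparisons. These values set pups of different groups against each other, so they cannot show which pups of a group share a litter. Whether the numbers mark a shared batch was not tested. The number past an adjusted p of 0.05, counted after the data were seen, was 0 to 3 in G3 against G1 with 1 pup left out. Without G1 replicate 6 it was 3, in a fit where 1434 of the 22523 probes passed, against 18 in the main fit. The rise thus took in many other probes. In G2 against G1 the highest count, 7, was also without G1 replicate 6, and the lowest was without G1 replicate 2, G2 replicate 2 or G2 replicate 6. The complement change in G3 against G1 was 0.092 as a mean and 0.00 as a median. The cause of these shifts was not tested.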
